A study of Rattus norvegicus with 10 samples.

Results

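The expression of 5 genes of GABA neurons was examined in the prefrontal cortex (PFC) of rats given MK-801, namely Gad1 and Gad2, which encode the enzymes of GABA synthesis, and Pvalb, Sst and Vip, which mark separate classes of cortical interneurons. They were chosen by their Ensembl identifiers and are 5 of the 30560 genes of the deposited count table. The identifiers are ENSRNOG00000000007 for Gad1, ENSRNOG00000018200 for Gad2, ENSRNOG00000006471 for Pvalb, ENSRNOG00000001837 for Sst and ENSRNOG00000018808 for Vip. The study used wild-type male rats of the Sprague-Dawley strain, aged 21 days and weighing about 60 g on arrival. After 1 week of habituation, 5 rats were injected intraperitoneally with MK-801 at 0.2 mg/kg, and 5 control rats with saline (0.9%), in both cases over 2 weeks. MK-801 blocks the channel of the NMDA receptor without competing with glutamate, and its repeated injection serves as a model of reduced glutamate signaling relevant to schizophrenia. Each rat gave 1 library from PFC tissue, and the labels name neither a litter nor a sequencing batch.

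GABA is the main inhibitory transmitter of the cortex and is made from glutamate by glutamate decarboxylase. Gad1 encodes the form of this enzyme that supplies most GABA of the cell body and is active at rest, and Gad2 encodes the form found mainly at axon terminals, where it is activated on demand. Nearly all cortical interneurons express both, whereas the calcium-binding protein parvalbumin (Pvalb) marks fast-spiking cells, the peptide somatostatin (Sst) marks cells that innervate dendrites, and vasoactive intestinal peptide (Vip) marks cells that mostly inhibit other interneurons. Interneurons, those with parvalbumin above all, are widely studied in NMDA receptor blockade because lower Gad1 and Pvalb transcripts are a known feature of the cortex in schizophrenia.

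The count tables bear on transcripts and not on promoters. The stretches of promoter shown here give the context of the genes whose levels varied together, Gad1 and Gad2, and of the peptide genes that hold letters of the cAMP response element, the site of the CREB family that the study examined at the protein level. All come from windows of RefSeq on the GRCr8 assembly, from 250 bases before to 50 bases after a gene start, which were found for all 5 genes. The sequences are those of the plus strand, with the searched letters in capitals. For Gad1, the first 58 bases of the window are shown (chr3:75777202-75777259), with TATAAA in capitals. They end where the RefSeq gene record of Gad1 begins, so this window was set on a later start within the gene. For Gad2, it is the 250 bases before the start (chr17:89671468-89671717), with CCAAT in capitals. For Sst and Vip, it is 30 bases around the element or its core (chr11:90461537-90461566 and chr1:44470372-44470401).
Gad1: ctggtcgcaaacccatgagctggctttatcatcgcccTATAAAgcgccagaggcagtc
Gad2: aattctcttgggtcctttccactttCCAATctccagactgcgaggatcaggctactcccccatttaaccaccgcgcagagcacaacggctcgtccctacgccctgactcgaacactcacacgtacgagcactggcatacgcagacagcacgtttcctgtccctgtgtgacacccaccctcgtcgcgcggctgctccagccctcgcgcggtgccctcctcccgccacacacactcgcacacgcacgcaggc
Sst: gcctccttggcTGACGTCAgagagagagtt
Vip: gatcaccactgTGACGtctttcgaggagcc

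On both strands, the full element TGACGTCA was found in the Sst window, 3 bases after the RefSeq start, and in none of the other 4 windows, against 1.83% of all 33469 windows. Its core TGACG, which the full element contains, stood in the windows of Pvalb, Sst and Vip and in 21.2% of all windows. TATAAA was found for Gad1 and Vip (14.2% of all windows), GGGCGG for Gad1 and Pvalb (33.1%) and CCAAT for Gad2 (37.5%). The GGGCGG of Gad1 lay past the beginning of its RefSeq gene record. The Gad1 and Gad2 windows thus shared none of these 5 motifs. However, only the first 58 bases of the Gad1 window lie before its gene record, so this does not compare the 2 promoters. A match is a description of letters and not evidence of binding.

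All 5 genes were detected in every rat, with between 593 counts (Vip) and 6256 counts (Gad1) per library. The total count per library was 24348037 to 29375092 for control rats and 24334589 to 30824539 for MK-801 rats. Counting error alone was at most 1.65% for Gad1 and 4.11% for Vip, whereas the coefficient of variation between rats of a group ranged from 5.52% to 26.6%. Therefore, the spread between rats and not the depth limited these comparisons. Levels are given as CPM, that is, counts brought to the same library size by the TMM method. CPM values are not divided by transcript length, so they were compared between rats for 1 gene and not between genes. In bulk tissue, fewer cells of a type and less RNA per cell cannot be told apart.

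With regard to GABA synthesis, Gad1 and Gad2 had the largest group differences of the 5 genes, and both were on average higher in the MK-801 group. The Gad1 level was 186, 160, 129, 158 and 177 CPM in control replicates 1 to 5, and 208, 190, 207, 200 and 183 CPM in MK-801 replicates 1 to 5. The groups overlapped by 1 rat, since control replicate 1 lay just above MK-801 replicate 5, and 4 MK-801 rats lay above every control rat. In 24 of the 25 pairs of an MK-801 rat and a control rat, the MK-801 rat was higher, a count reached or exceeded by 2.14% of the 16137 genes tested. The mean of the MK-801 group was 198 ± 10.9 CPM (SD, n = 5), and that of the control group was 162 ± 21.9 CPM (SD, n = 5), a ratio of 1.22 (95% interval 1.07 to 1.39). The log2 fold change was 0.29 (standard error 0.087) with an unadjusted p = 0.00633 and an adjusted p = 0.268 in edgeR's quasi-likelihood test. The two-sided exact permutation test of log2 CPM gave p = 0.0159. The control rats were spread more widely than the MK-801 rats, with a coefficient of variation of 13.5% against 5.52%, and replicate 3 was the lowest of them.

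The Gad2 level was 82.8, 57.4, 45.2, 58.2 and 69.2 CPM in control replicates 1 to 5, and 95.1, 76.6, 85.8, 75.2 and 73.1 CPM in MK-801 replicates 1 to 5. Control replicate 1 lay within the MK-801 range and above 3 of its rats, and the other 4 control rats lay below all MK-801 rats. The MK-801 rat was higher in 22 of the 25 pairs, as it was or more often for 6.40% of all genes tested. The mean was 81.2 ± 9.20 CPM (SD, n = 5) against 62.6 ± 14.1 CPM (SD, n = 5) in the control group, a ratio of 1.30 (95% interval 1.06 to 1.59). The log2 fold change was 0.38 (standard error 0.14), with an unadjusted p = 0.0178 and an adjusted p = 0.302 in edgeR's quasi-likelihood test, and the two-sided exact permutation test gave p = 0.0476.

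Neither gene passed the test after Benjamini-Hochberg adjustment over all 16137 genes. At an unadjusted p-value under 0.05 in edgeR, 2 of the 5 genes, Gad1 and Gad2, were higher in the MK-801 group, beside 6.90% of all genes tested that were higher and 6.95% that were lower. None of the 5 genes was lower at this level. Gad1 and Gad2 varied together from rat to rat, as described below, so they are not 2 independent results. At an adjusted p-value under 0.05, edgeR called 0 of all genes (0%, with 2235 genes or 13.9% at the unadjusted level), and DESeq2 called 106 genes (0.718% of those with an adjusted p-value), none of them among the 5. In DESeq2, the adjusted p was 0.105 for Gad1 and 0.174 for Gad2. The criteria of the methods ask for a p-value under 0.05 together with a log2 fold change of 1 or more in size. Applied here to edgeR's unadjusted p-values, they were met by 0.229% of all genes and by none of the 5, whose log2 fold changes in DESeq2 were also below 1. None of the 5 had groups free of overlap, as 2.31% of all genes had in either direction and 1.10% with the MK-801 rats higher.

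**Figure D1:**
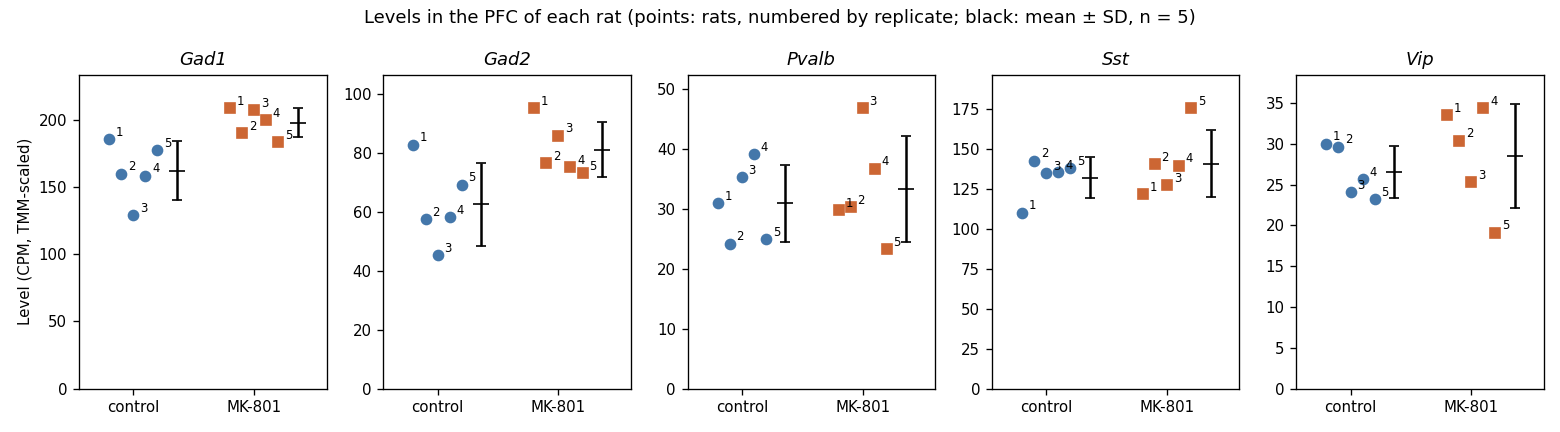
Level of each gene in each rat, as CPM after TMM scaling on a vertical axis from 0, with the 5 control rats as circles and the 5 MK-801 rats as squares, numbered by replicate. The black bars give the mean ± SD. For Gad1, 4 of the 5 MK-801 rats lie above every control rat, whereas for Pvalb, Sst and Vip the groups overlap broadly.

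Among the interneuron markers, Pvalb had 31.0, 24.2, 35.4, 39.2 and 24.96 CPM in control replicates 1 to 5, and 29.8, 30.3, 46.8, 36.8 and 23.3 CPM in MK-801 replicates 1 to 5. Both the highest and the lowest of the 10 rats, replicates 3 and 5, belonged to the MK-801 group, so that its range enclosed that of the control group. The mean of the MK-801 group was 33.4 ± 8.88 CPM (SD, n = 5), and that of the control group was 30.9 ± 6.49 CPM (SD, n = 5). The log2 fold change was 0.11 (standard error 0.18, adjusted p = 0.813 in edgeR's quasi-likelihood test), and its 95% interval, from -0.29 to 0.50, allowed a level from 0.820 to 1.42 times that of the control group. Without MK-801 replicate 3 the log2 fold change turned to -0.04, with an adjusted p = 0.928 in the same test. A change in parvalbumin transcripts was therefore not detectable at this spread between rats, taken as unpaired. With the replicate number as a block in edgeR, the standard error was 0.089 and the adjusted p was 0.612.

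The Sst level was 110, 142, 135, 135 and 138 CPM in control replicates 1 to 5, and 121, 140, 127, 139 and 175 CPM in MK-801 replicates 1 to 5. One rat of each group stood off, control replicate 1 below and MK-801 replicate 5 above all other rats, and the remaining 8 rats lay between 121 and 142 CPM. The mean was 141 ± 20.9 CPM (SD, n = 5) with MK-801 and 132 ± 12.7 CPM (SD, n = 5) with saline. The log2 fold change was 0.09 (standard error 0.099, 95% interval -0.12 to 0.31, adjusted p = 0.700 in edgeR's quasi-likelihood test), and it was 0.01 without MK-801 replicate 5.

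Vip reached 30.01, 29.7, 24.1, 25.7 and 23.2 CPM in control replicates 1 to 5, and 33.5, 30.4, 25.3, 34.3 and 19.1 CPM in MK-801 replicates 1 to 5. In the MK-801 group, 3 rats lay above every control rat, while replicate 5 was the lowest of all 10 rats. The mean was 28.5 ± 6.35 CPM (SD, n = 5) with MK-801 and 26.5 ± 3.14 CPM (SD, n = 5) with saline. The log2 fold change was 0.10 (standard error 0.15, 95% interval -0.21 to 0.42, adjusted p = 0.775 in edgeR's quasi-likelihood test). Without MK-801 replicate 5, the log2 fold change was 0.22, with an unadjusted p = 0.0603 and an adjusted p = 0.421 in the same test, and without MK-801 replicate 4 or 1 it was 0.03 and 0.04, respectively. The same rat thus had the highest Sst level and the lowest Pvalb and Vip levels of all.

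The fitted log2 fold change was above 0 for all 5 genes, as it was for 48.7% of all genes tested, for which the median was -0.01. The intervals of Pvalb, Sst and Vip all included 0 and overlapped those of Gad1 and Gad2. An unadjusted p-value under 0.05 for both enzymes and for none of the markers does not show that they responded differently, a difference that was not tested.

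**Figure D2:**
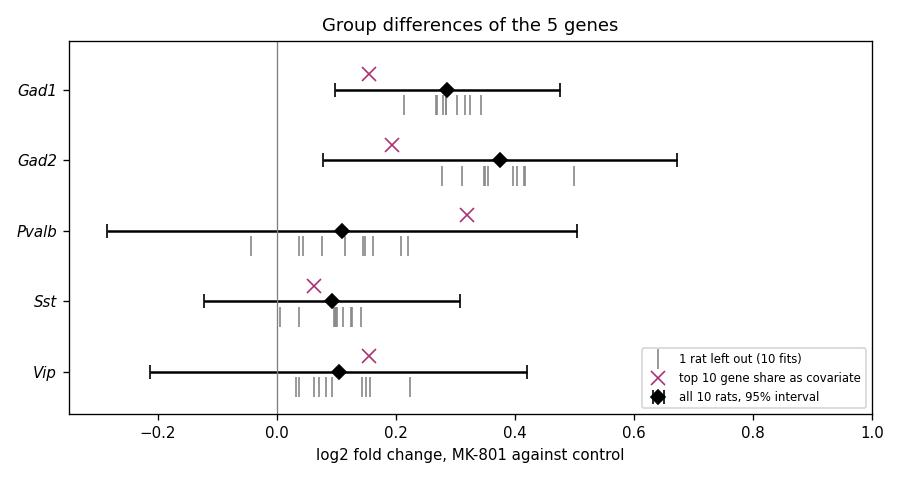
Log2 fold change of MK-801 rats against control rats for the 5 genes, with the 95% interval of edgeR's quasi-likelihood fit (diamonds and bars), the 10 fits without 1 rat each (grey ticks) and the fit with library composition, the share of the top 10 genes, as a covariate (crosses). The intervals of Gad1 and Gad2 lie above 0 and those of Pvalb, Sst and Vip include it, and 1 of the ticks of Pvalb lies below 0.

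Library composition differed between the rats as well. The 10 most abundant genes of a library took 7.53%, 8.09%, 10.9%, 8.77% and 6.005% of the counts in control replicates 1 to 5, and 7.05%, 6.89%, 6.64%, 6.84% and 5.86% in MK-801 replicates 1 to 5. Control replicate 3, with the highest share, had the lowest Gad1 and Gad2 levels of all 10 rats, and control replicates 2 and 4, next in share, had the next lowest. Among the MK-801 rats the order was the opposite at both ends, since replicate 1, with the highest share, had the highest levels of both genes, and replicate 5, with the lowest share, had the lowest. Control replicate 1 likewise had a higher share and higher levels than control replicate 5. With this share as a covariate in edgeR, a setting chosen after seeing the data, the log2 fold change was 0.15 for Gad1 (unadjusted p = 0.0752) and 0.19 for Gad2 (unadjusted p = 0.183). The same covariate in edgeR raised the value of Pvalb to 0.32 (unadjusted p = 0.146) and that of Vip to 0.15 (unadjusted p = 0.408). It lowered that of Sst to 0.06 (unadjusted p = 0.620). All 5 genes had an adjusted p of 0.916 or more in this fit. Of the 16137 genes tested, 777 had an unadjusted p-value under 0.05 with the covariate in edgeR, against 2235 without it. Since the share differed between the groups, this fit cannot tell library composition and treatment apart. Beyond this fit, the part of library composition in the Gad1 and Gad2 differences was not tested.

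**Figure D3:**
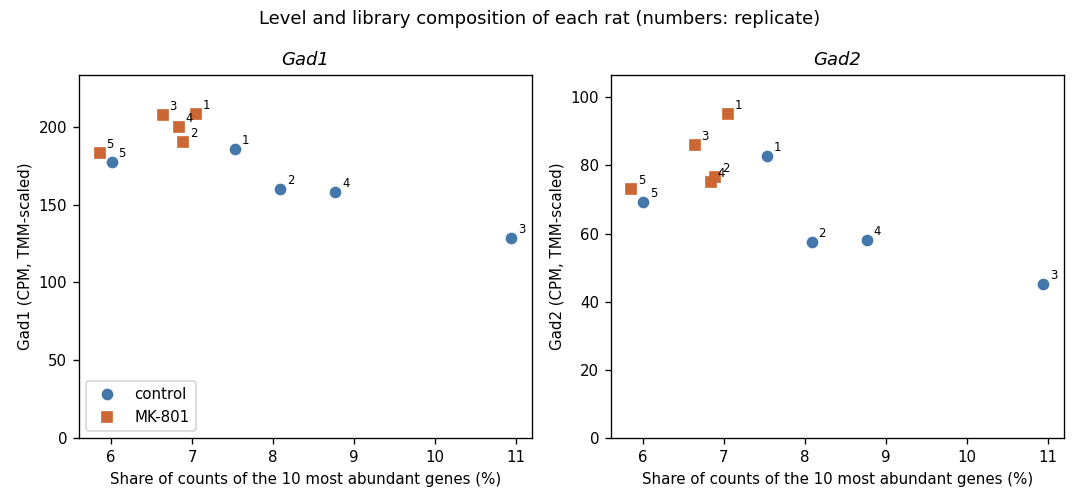
Levels of Gad1 (left) and Gad2 (right) in CPM, plotted against the share of counts in percent that the 10 most abundant genes took in each library, with control rats as circles and MK-801 rats as squares, numbered by replicate. Control replicate 3 lies apart at a share of 10.9% and at the lowest level of both genes.

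The 5 genes were next compared in how they varied from rat to rat, apart from the group difference, by subtracting the group mean from the log2 CPM of each rat. Of the 10 pairs of genes, 1 pair, Gad1 and Gad2, was correlated after adjustment over the 10 pairs. For this pair, Pearson's r was 0.944 over the 10 rats (permutation within groups, p = 0.000460, adjusted p = 0.00460) and Spearman's rho was 0.879 (permutation p = 0.00448, adjusted p = 0.0448). Without the 2 rats farthest from the median of Gad1, r was 0.862. Thus, rats with more of the transcript of the one enzyme had more of the other, control replicate 3 being the lowest and control replicate 1 the highest in both against the group mean. Both values come from the same libraries and share their composition. Without control replicate 5, r was 0.943 but the adjusted permutation p was 0.112, so that the call was lost. Among all genes tested, the profile of Gad2 over the 10 rats ranked 4 of 16136 in likeness to that of Gad1 by Pearson's r (0.966, group means not subtracted), and Gad1 ranked 5 in likeness to Gad2. The genes ranked above them were not paired with names in the files used here.

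No pair that included a marker gene was called with all 10 rats. Sst deviated opposite to Gad2, with r = -0.646 (permutation p = 0.0321, adjusted p = 0.160; rho = -0.588, permutation p = 0.0886, adjusted p = 0.295), and to Gad1, with r = -0.533 (permutation p = 0.0974, adjusted p = 0.243; rho = -0.552, permutation p = 0.119, adjusted p = 0.297). Without the 2 rats farthest from the median of the enzyme, r was -0.676 and -0.628, respectively. Without control replicate 3, r was -0.809 for Gad2 and -0.819 for Gad1, and both had an adjusted permutation p = 0.0145. Without control replicate 1, the rat lowest in Sst, r was weaker, at -0.412 for Gad2 and -0.306 for Gad1. Both then had an adjusted permutation p = 0.407, so the strength of these relations depended on single rats. Sst and Vip had r = -0.663 (permutation p = 0.0666, adjusted p = 0.222) and rho = -0.600 (permutation p = 0.0727, adjusted p = 0.295). Without the 2 rats farthest from the median of Sst, r was -0.209. Without MK-801 replicate 5 alone it was -0.197 (adjusted permutation p = 0.678). Without control replicate 1 alone it was -0.631 (adjusted permutation p = 0.407). The size of r thus rested mainly on MK-801 replicate 5. Pvalb showed no detectable relation to either enzyme, with r = -0.0534 for Gad1 and -0.0795 for Gad2 (adjusted permutation p = 0.896 for both). The other 4 pairs had r between -0.503 (Pvalb and Sst) and 0.355 (Gad1 and Vip) and an adjusted permutation p of 0.324 or more.

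**Figure D4:**
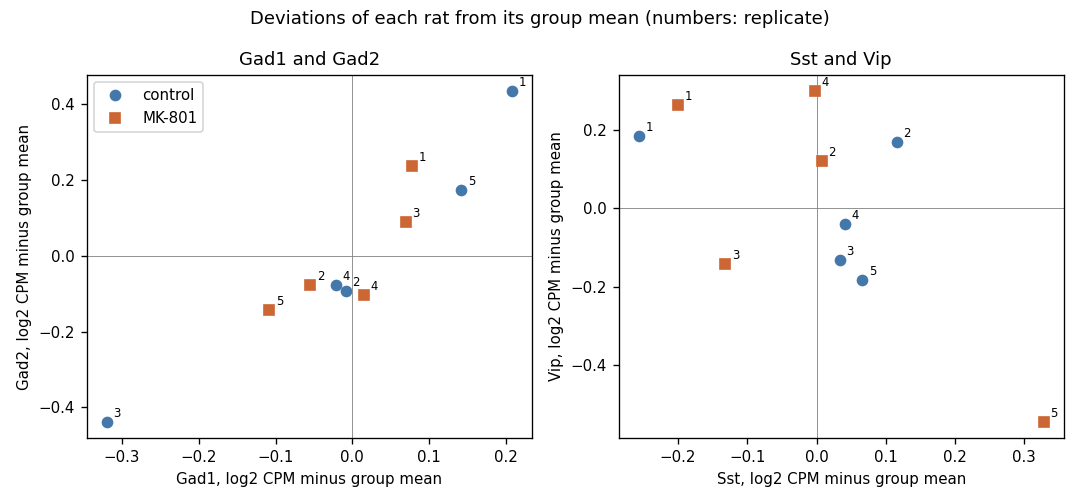
Deviation of each rat from its group mean in log2 CPM, for Gad1 and Gad2 (left) and for Sst and Vip (right), with control rats as circles and MK-801 rats as squares, numbered by replicate. Gad1 and Gad2 lie along a rising line (r = 0.944), and in the right panel MK-801 replicate 5 lies apart at high Sst and low Vip.

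Because a ratio of counts within 1 library does not depend on how libraries are scaled, 4 ratios were compared between the groups with two-sided exact permutation tests of the log2 ratio. The ratio of Gad1 to Gad2 was 2.24, 2.78, 2.85, 2.72 and 2.56 in control replicates 1 to 5, and 2.19, 2.48, 2.41, 2.65 and 2.51 in MK-801 replicates 1 to 5. The difference in log2 ratio, MK-801 minus control, was -0.10 (exact permutation p = 0.230), which did not pass the test. With rats paired by replicate number, the paired exact permutation test gave p = 0.0625. This is the smallest p that it can give with 5 differences, so it could not pass either. Without control replicate 1, the rat with the lowest control ratio, the difference was -0.16 (exact permutation p = 0.0317, unadjusted for the 4 ratios).

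For the markers, the ratio of Pvalb to Sst ranged from 0.170 to 0.290 for control rats and from 0.133 to 0.368 for MK-801 rats, with medians of 0.263 and 0.245. The ratio of Pvalb to Vip had medians of 1.07 and 1.07, and ranges of 0.816 to 1.53 and 0.889 to 1.85. The ratio of Sst to Vip had medians of 5.27 and 4.62, and ranges of 3.67 to 5.92 and 3.62 to 9.16, the highest value being that of MK-801 replicate 5. In all 3 ratios the MK-801 rats reached beyond the control rats at the upper end, and the differences in log2 ratio of 0.01, 0.02 and 0.01 were far smaller than the spread between rats (exact permutation p = 0.968, 0.929 and 0.992).

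**Figure D5:**
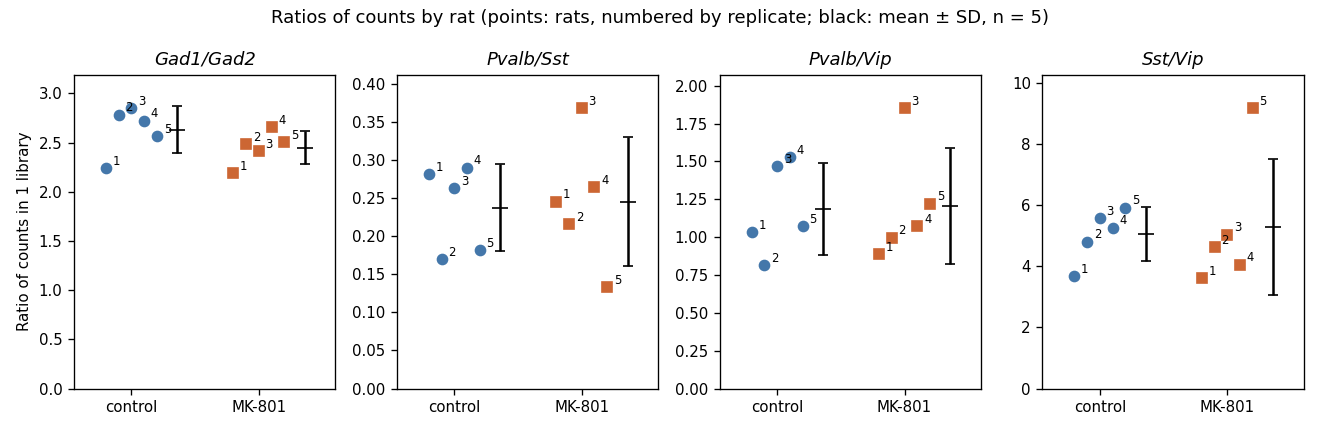
Ratios of counts within each library on a vertical axis from 0, for Gad1 to Gad2, Pvalb to Sst, Pvalb to Vip and Sst to Vip, with control rats as circles and MK-801 rats as squares, numbered by replicate. The black bars give the mean ± SD, and the groups overlap in all 4 ratios.

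The spread between rats was not the same for all genes. The SD of log2 CPM within groups was 0.15 for Gad1, 0.18 for Sst, 0.26 for Gad2, 0.27 for Vip and 0.34 for Pvalb, against a median of 0.16 over all genes tested. Pvalb thus varied more between rats than 81.6% of all genes tested, and Gad1 more than 48.6% of them. The 2 rats numbered 1 had the highest Gad1 and Gad2 levels and the lowest Sst level of their groups, and the 2 rats numbered 5 had the lowest Vip level of their groups, although the labels do not say that the numbers pair the rats.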

How the data were processed

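According to the methods and the submitters' processing notes, the authors aligned the reads with HISAT2 2.2.1 to mRatBN7.2, handled them with SAMtools 1.15.1 and counted them on Ensembl release 105 genes with featureCounts (Subread version 2.0.1). The deposited values are raw counts of reads for each gene in each rat. The strand setting is not given in the sources used here, so reads of overlapping and antisense genes cannot be told apart. Every column belonged to 1 of the 10 rats. The labels number the rats but do not name separate litters, and each was taken as 1 replicate.

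Counts were tested with edgeR version 4.0.16 (R version 4.3.3): filterByExpr (minimum count 10, minimum total 15), which kept 16137 of 30560 genes, TMM scaling, and the two-sided quasi-likelihood test, adjusted by Benjamini-Hochberg over these genes. Log2 CPM used a prior count of 2, and log2 ratios added 0.5 to each count. Permutation tests used scipy version 1.17.1, with 100000 permutations within groups for correlations. Alternatives were DESeq2 version 1.42.0, limma-voom (limma version 3.58.1), other scalings and filters, the replicate block and each rat left out. The fits were tested on simulated data.

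The members and lists were chosen with earlier results of these data known. The rule named the 5 genes. The plan of the tests added, for each, the 2 genes most like it. It also added the members of fixed lists of GABA transport, receptor, interneuron and other cell type genes. Both were to be named only where a table paired names with identifiers. A RefSeq table of the GRCr8 assembly matched 0 identifiers, so these genes, including markers of excitatory neurons, striatum and glia, were not analysed here, and the tissue label was not checked against markers of brain regions.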

Additional observations from a re-analysis of the deposited data

Results flagged for a closer look

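Each of the 5 genes and 4 ratios was searched, in both treatments, for a rat set apart from its group of 5, that is, one separated from its closest neighbour by over 0.71 of the distance between lowest and highest rat. Of these 18 groups, 1 held such a rat, about what the rate of 1 in 20 expected by chance gives. Control replicate 1 lay below the other control rats in Sst, at 110 CPM, and the gap made up 0.780 of the whole range on the log2 scale. Without this rat, the log2 fold change of Sst was 0.04, against 0.09 with all rats.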

How the results depend on the processing

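Gad1 and Gad2 kept their direction in all 17 planned settings, with log2 fold changes from 0.21 to 0.34 and from 0.28 to 0.50, and edgeR's, DESeq2's or limma-voom's adjusted p from 0.105 to 0.525 and from 0.153 to 0.546. None of the 5 genes passed an adjusted p-value of 0.05 in any setting. With each rat left out in turn, Pvalb ranged from -0.044 (without MK-801 replicate 3) to 0.22, Sst from 0.01 to 0.14 and Vip from 0.03 to 0.22. The difference in log2 ratio ranged from -0.16 (past the threshold without control replicate 1) to -0.062 for Gad1 to Gad2, from -0.15 to 0.21 for Pvalb to Sst, from -0.15 to 0.12 for Pvalb to Vip and from -0.21 to 0.12 for Sst to Vip. The correlated pairs of genes numbered from 0 (without control replicate 5) to 3 (without control replicate 3), against 1 with all rats. Over all genes, those at an adjusted p-value under 0.05 numbered 0 in edgeR, from 0 to 12 with 1 rat left out (12 without MK-801 replicate 1) and 106 with DESeq2. Those at an unadjusted p-value under 0.05 numbered 2235, from 1458 to 3280 with 1 rat left out (1458 without control replicate 3, 1474 without control replicate 4, 3280 without control replicate 5), and 777 with library composition as a covariate (share of the top 10 genes), a setting chosen after seeing the data. For all of these, the cause was not tested.

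The labels do not say that replicate numbers pair the rats, and deviations of same-numbered rats correlated above 0.1 in 3 of 5 pairs, short of all, and no pairing was assumed. As a hint from the data to the contrary, 5 of 10 rats were closest to their own number, and replicates 1 and 5, at 0.183 and 0.319, exceeded the highest correlation between different numbers, 0.126. With the replicate block, the log2 fold changes were 0.30, 0.39, 0.10, 0.09 and 0.08 for Gad1, Gad2, Pvalb, Sst and Vip, no call changed, and 2862 genes passed the unadjusted threshold. In the same order, the standard errors were 0.085, 0.11, 0.089, 0.065 and 0.092, against 0.087, 0.14, 0.18, 0.099 and 0.15 without the block. The lower standard errors are a further hint that the numbers may pair the rats. With 5 differences, the smallest p of the paired exact permutation test of a ratio is 0.0625, which Gad1 to Gad2 reached, being lower in the MK-801 rat in all 5 differences.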
